A study of Mus musculus with 109 samples.

Results

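This account follows early response genes of brain microglia in mice given lipopolysaccharide (LPS), the bacterial cell wall component that drives an acute inflammatory response. They comprise 101 protein-coding genes, 4 long noncoding RNAs, 1 other RNA and 1 pseudogene, 0.836% of the 12798 genes of the table. The genes were chosen by their measured values in the table of Il10ra mutants and their floxed controls. On group means of log2(normalised reads + 1), each had to be at least 1.5 higher at 6 h than untreated in the controls, at most 0.75 higher at 48 h in the controls, and at least 1.5 higher at 48 h than untreated in the mutants. Of 764 genes past the 6 h threshold, 337 were also past the 48 h threshold of the controls. Of those also past the mutant threshold, 13 were left out for names of the cytokine, chemokine, interferon-induced and related families, and 6 for predicted-gene names. The members are therefore early LPS genes that were back near the untreated level at 48 h in controls but not in Il10ra mutants, and those differences are the rule and not findings.

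LPS binds a receptor complex that includes CD14 and TLR4, and NF-kB and MAP kinase signalling then switch on early genes within hours. Interleukin-10 (IL-10) acts through a receptor whose ligand-binding chain is encoded by Il10ra, and its STAT3 signal restrains macrophage activation. Tumour necrosis factor (TNF), encoded by Tnf, is an early cytokine that can itself signal back to macrophages through NF-kB.

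Microglia were isolated by flow sorting with CD45 and CD11b as markers and sequenced as 3' tag libraries by MARS-seq, and LPS was given intraperitoneally at 2.5 mg/kg. Il10ra mutants carried CX3CR1-CreER:IL10Rafl/fl, in which an inducible Cre is made in cells that express Cx3cr1, and their controls were IL10Rafl mice whose labels name no Cre. They comprised 6 untreated control libraries, 6 at 6 h, 4 at 24 h and 6 at 48 h, and 9, 7, 5 and 5 mutant libraries at the same times. A second table held double mutants, with floxed Il10ra and floxed Tnf under the same Cre (5 untreated, 6 at 6 h, 4 at 48 h), doubly floxed controls without Cre in their labels (6, 5 and 6), and the 5 Il10ra mutant libraries of 48 h again. Tables of controls added 4 IL10Rafl/fl libraries taken 7 days after LPS and 4 of untreated wild-type C57BL/6 mice. The Cre allele and the deletion cannot be told apart in this design, and the labels give neither age nor any tamoxifen treatment. The labels do not say that libraries came from separate animals, so p-values measure the spread between these samples, which may be technical.

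Recovered reads ran from 558878 to 1875460 per library in the Il10ra mutant table and from 540642 to 2489084 in the double mutant table. The targeted transcripts followed the labels. Il10ra averaged 541 ± 103 normalised reads (SD, n = 6) in untreated floxed controls and between 27.2 and 63.1 in the groups of Il10ra mutants. In the double mutant table Tnf at 48 h averaged 135 ± 62.6 (SD, n = 6) in doubly floxed controls, 6.09 ± 2.27 (SD, n = 4) in double mutants and 1659 ± 882 (SD, n = 5) in Il10ra mutants. Homeostatic microglial markers were abundant throughout, with the summed level of 16 genes at 42211.5 to 78237.7 across the 48 h libraries of that table. One 48 h library whose labels name different genotypes was kept out of all comparisons. Fewer cells of a type and less RNA per cell cannot be told apart in such bulk samples.

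Every member matched a RefSeq gene, 1 of them by a synonym and the rest by symbol. Grouped by textbook role after their names were seen, 17 members belonged to ribosome biogenesis and RNA polymerase, 16 to redox, nutrient and nucleotide metabolism, 14 to transcription and signalling, and 9 each to coagulation and secreted factors and to cytoskeleton and cell shape. A further 8 were surface receptors or antigens, 7 acted in lipid mediator or cyclic AMP signalling, 4 in survival and cell cycle, 4 were small nucleolar RNA hosts or other noncoding RNAs, and 19 had another role or none assigned.

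A RefSeq promoter was found for 82 members. Of the sequences 250 bases before the listed start (build GRCm38.p6, the assembly also called mm10), 5 are printed because each holds a match to a motif class linked with LPS or cytokine signalling. Each belongs to a member named by the rule given under processing, although no expression values are given for Bcl2a1d. Only the match of the class named for each window is in capitals. Sequences read 5' to 3' on the gene's strand, and motifs were searched on both strands. The Edn1 window (chr13:42301226-42301475, plus strand) has an interferon-type match (GAAANNGAA, here on the reverse strand) beginning at -77. The Slc7a11 window (chr3:50443614-50443863, minus strand, a start inside the annotated gene span) has a STAT-type match (TTCNNNGAA) at -183. The Eno2 window (chr6:124769674-124769923, minus strand) has a kB-type match (GGGNNTTTC) at -158, and the Ccrl2 window (chr9:111057519-111057768, minus strand) has one on the reverse strand at -229. The Bcl2a1d window (chr9:88731851-88732100, minus strand) has an AP-1-type match (TGANTCA) at -114. Not marked are a shorter kB-type match (GGGNNTTCC) in the Ccrl2 window and antioxidant-type matches (TGACNNNGC) in the Ccrl2 and Edn1 windows.
Edn1: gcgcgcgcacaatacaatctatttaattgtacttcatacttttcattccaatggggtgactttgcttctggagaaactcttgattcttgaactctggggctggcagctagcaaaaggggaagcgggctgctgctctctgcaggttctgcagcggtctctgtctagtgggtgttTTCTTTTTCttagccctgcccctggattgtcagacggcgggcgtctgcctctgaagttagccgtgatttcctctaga
Slc7a11: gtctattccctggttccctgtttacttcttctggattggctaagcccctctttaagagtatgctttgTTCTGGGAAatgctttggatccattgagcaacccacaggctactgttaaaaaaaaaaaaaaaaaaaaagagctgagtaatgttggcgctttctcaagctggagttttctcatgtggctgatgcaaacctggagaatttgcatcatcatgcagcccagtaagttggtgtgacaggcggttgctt
Eno2: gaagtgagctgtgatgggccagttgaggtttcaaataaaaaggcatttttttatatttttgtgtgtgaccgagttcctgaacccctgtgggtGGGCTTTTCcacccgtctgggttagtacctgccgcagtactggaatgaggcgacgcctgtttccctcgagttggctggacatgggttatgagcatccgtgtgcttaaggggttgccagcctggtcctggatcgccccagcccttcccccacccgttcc
Ccrl2: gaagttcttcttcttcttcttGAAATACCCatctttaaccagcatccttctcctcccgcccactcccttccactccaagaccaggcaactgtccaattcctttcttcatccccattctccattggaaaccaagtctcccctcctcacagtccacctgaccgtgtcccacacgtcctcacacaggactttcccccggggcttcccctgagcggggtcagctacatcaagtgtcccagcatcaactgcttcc
Bcl2a1d: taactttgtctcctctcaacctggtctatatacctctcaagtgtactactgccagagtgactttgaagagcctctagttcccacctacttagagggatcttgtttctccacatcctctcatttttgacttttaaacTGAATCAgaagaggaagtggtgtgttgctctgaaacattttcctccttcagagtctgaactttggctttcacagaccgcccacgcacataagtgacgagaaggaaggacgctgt

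These words were not confined to the members. The kB-type word was in 3.66% of the 82 member promoters and in 3.73% of 9132 promoters of genes in the table, and the shorter kB word GGGNNTTCC, which can overlap the same kind of site, was in 6.1% and 6.46%. The AP-1-type word was in 8 member promoters (9.76%, against 4.06% of all), and the interferon-type word in 2 (2.44%, against 6.55%). The STAT-type word was in 4.88% of member promoters and 6.02% of all, the E-box CACGTG in 9 member promoters and in 8.63% of all, and the antioxidant-type word TGACNNNGC in 12.2% of both. A match describes letters in this window only and shows no binding.

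The mean over the members on the log2 scale describes the pattern that the rule selected. In floxed controls its group means were 2.95 untreated, 5.12 at 6 h, 4.46 at 24 h and 3.29 at 48 h. In Il10ra mutants they were 2.94, 5.42, 5.21 and 5.31 at the same times. All libraries of 6 h and 24 h came from the experiments AS_2nd_exp and Anat_LPSchallenged, and all control libraries of 48 h from AS_3rd_LPS. Differences between 48 h and the earlier LPS times therefore cannot be told apart from experiment. The mutants of 48 h averaged 5.075 in AS_3rd_LPS and 5.666 in AS_DKO_LPS_2ndexp, which gave no other library to this table. The 48 h libraries of the mutants ran from 4.66 to 5.82, so that the library with the lowest mean still lay above every 48 h control library. That library also had the highest summed monocyte marker level of its group, 169.1 normalised reads in this table, and its part in the value was not tested.

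**Figure D1:**
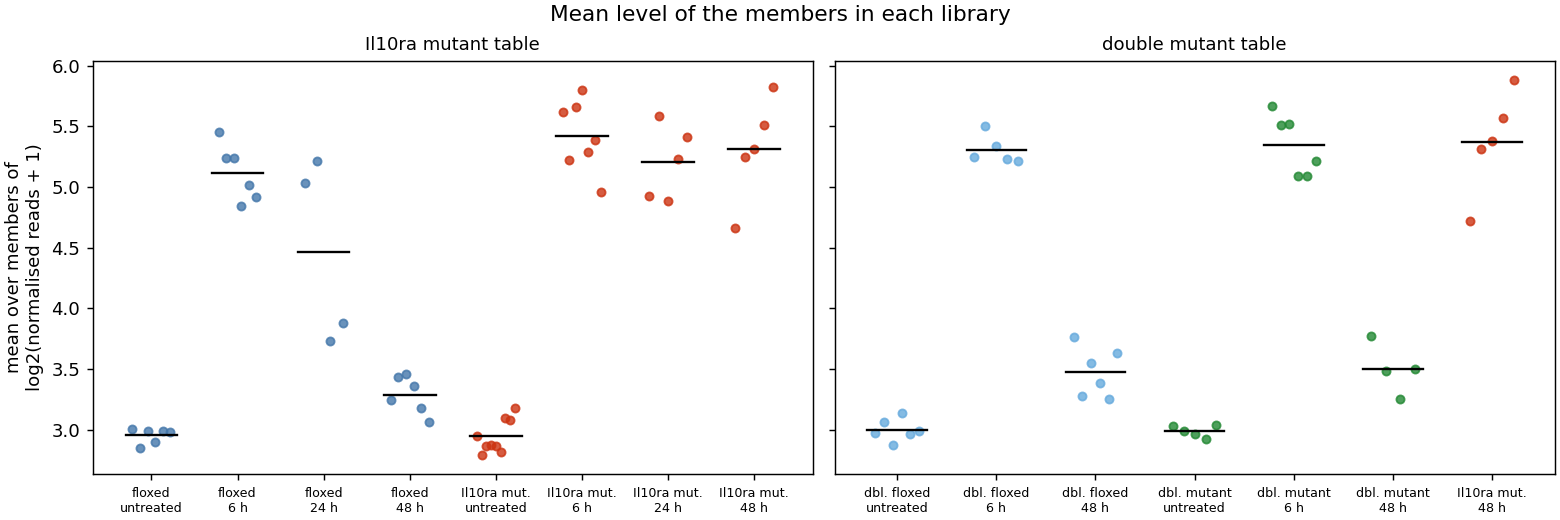
Each point is the mean over the members of log2(normalised reads + 1) in 1 library, grouped by genotype and time, with lines at the group means; the left panel is the Il10ra mutant table and the right panel the double mutant table. Double mutants and doubly floxed controls sit near 3.5 at 48 h, and the Il10ra mutants of 48 h, whose values helped to choose the members, average 5.37.

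The values used by the rule ranged widely among members. The 6 h rise in controls had a median of 1.95 and a highest value of 4.59, the control difference at 48 h ran from -1.13 to 0.75 with a median of 0.37, and the mutant difference at 48 h had a median of 2.09 and a highest value of 5.49, that of Edn1. Just inside the 6 h threshold lay Mapkapk2 (1.52), Ripk3 (1.52) and Noc4l (1.52), and just outside it Nop14 (1.497), Nrp2 (1.49) and Pop1 (1.48). At the 48 h threshold of controls Glrx (0.75) and Sdad1 (0.73) were inside, and Taf4b (0.76), Ier2 (0.78) and Snhg3 (0.80) outside. At the mutant threshold Utp20 (1.504), Naa25 (1.51) and Mrto4 (1.53) were inside, and Mybbp1a (1.495), Upp1 (1.49) and Snhg12 (1.49) outside, so that genes of ribosome biogenesis lay on both sides.

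Doubly floxed controls and double mutants, none of whose libraries entered the rule, show whether these genes respond to LPS in other mice. At 6 h the members rose in both genotypes. Every member except Sh3bp4 passed the filter on low values. Of those tested, 99 rose in doubly floxed controls and 104 in double mutants in the limma test at an adjusted p under 0.05, and none fell. The 7 not called in the controls were Cystm1, F10, Gapdh, Gnmt, Hmgn2, Rpl18-ps2 and Slfn1. Over all genes tested, 21.6% rose and 21.1% fell in the controls, and 22.8% rose and 21.5% fell in the double mutants. The median log2 change of the members was 2.09 in controls and 2.04 in double mutants, beside 0.01 and 0.03 for all genes. Testing every gene without that filter added 1 call in the controls and none in the double mutants. Monocyte markers moved with the members: 3 of 7 tested rose in the controls and 4 of 7 in the double mutants, and none fell. Their summed level ran from 13.6 to 50.8 untreated and from 76.8 to 596.2 at 6 h in the controls, and from 11.7 to 54.6 and from 130.4 to 317.7 in the double mutants. Control replicate 3 had the 596.2, and its neutrophil markers summed to 6758.7, against 14.3 to 229.1 in the other 6 h controls; without it 97 members rose in the controls. None of the 7 neutrophil markers tested was called in either genotype. Ly6c2 is both a member and on the monocyte list, and the part of other cells in the 6 h changes was not tested.

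Among surface receptors, all 8 members rose at 6 h in both genotypes. Ccr7, the chemokine receptor that guides migration towards lymphoid tissue, was 0 in all 5 untreated double mutant libraries and ran from 24.3 to 103 normalised reads at 6 h, with a median of 41.2. In doubly floxed controls it was 77.1, 90.3, 65.2, 61.6 and 21.0 at 6 h, against 0 to 1.69 untreated with a median of 0. The untreated and 6 h libraries did not overlap in either genotype, and its adjusted p in limma was 6.55e-12 in the controls and 1.20e-11 in the double mutants. Sdc4, a heparan sulfate proteoglycan of the cell surface, rose by 5.43 ± 0.39 (SE) in the controls and by 5.63 ± 0.40 in the double mutants. Cd14, the LPS co-receptor and the most abundant member, rose by 2.90 ± 0.14 and 2.99 ± 0.14.

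All 7 lipid mediator and cyclic AMP genes also rose at 6 h in both genotypes. Ptgs2, the inducible cyclooxygenase that makes prostaglandin precursors, was 0 in every untreated doubly floxed control and 22, 37.5, 12.1, 28.5 and 16.3 at 6 h. In double mutants it went from 0 to 1.95 untreated to between 6.17 and 29.3 at 6 h. Sphk1, the kinase that makes sphingosine 1-phosphate, was 0 in all untreated double mutants and ran from 5.71 to 23.1 at 6 h. In both genotypes the 6 h libraries of these genes lay above all untreated ones. Ptges, the prostaglandin E synthase that acts after Ptgs2, rose by 4.24 ± 0.49 in the controls and 4.47 ± 0.50 in the double mutants.

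All 17 ribosome biogenesis and RNA polymerase members rose at 6 h in both genotypes, with medians of 2.03 in controls and 1.82 in double mutants. Ncl, which encodes the abundant nucleolar protein nucleolin, was 177 to 239 normalised reads in untreated controls with a median of 203, and 789.5, 987, 924, 768 and 816 at 6 h. In double mutants it was 215, 153, 255, 175 and 253 untreated and 675 to 967 at 6 h. The libraries of each genotype separated completely, with log2 changes of 2.07 ± 0.14 and 2.03 ± 0.14. Of 55 other ribosome biogenesis genes, a list composed after the members were known, 50 rose and none fell at 6 h in each genotype, with medians of 1.46 and 1.40.

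Metabolic members behaved alike at 6 h, with 14 of 16 higher in the controls and 15 of 16 in the double mutants. Slc7a11, the cystine transporter that supplies glutathione synthesis, was 97.5, 92.9, 58.9, 52.6 and 47.7 in controls at 6 h, against 0 to 2.71 untreated. Its double mutant libraries ran from 23.1 to 135 at 6 h, against 2.25, 1.41, 1.95, 0 and 1.46 untreated, a log2 change of 4.69 ± 0.46. Pfkfb3, which makes an activator of glycolysis, rose by 2.94 ± 0.18 in the controls and by 2.46 ± 0.18 in the double mutants. Among secreted factors, Edn1, which encodes the vasoconstrictor peptide endothelin-1, rose by 2.35 ± 0.61 in controls and 2.62 ± 0.62 in double mutants, with 8 of 9 and 9 of 9 members of its group higher.

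Crispld2, a secreted protein gene, was 0 in every untreated double mutant and 22, 41.7, 19.5, 36.1 and 59.4 in doubly floxed controls at 6 h, a rise of 4.91 ± 0.47. Its 6 h libraries lay above all untreated ones. Slc15a3, a peptide and histidine transporter of the lysosome, rose by 1.77 ± 0.17 in controls and 1.70 ± 0.18 in double mutants, and Klf13, a zinc finger transcription factor gene, by 2.14 ± 0.15 and 2.35 ± 0.16. Ets2, a transcription factor gene, rose by 1.37 ± 0.23 and 1.48 ± 0.23, and Pde4b, which encodes a phosphodiesterase that breaks down cyclic AMP, by 2.27 ± 0.29 and 1.74 ± 0.29. Mapkapk2, the kinase that acts after p38 and stabilises cytokine mRNAs, rose by 2.19 ± 0.16 and 1.83 ± 0.16. Ly6c2, a monocyte surface antigen, was 2.75, 8.44, 71.6, 1.5 and 1.16 in the controls at 6 h, against 0 to 1.69 untreated, so that the groups overlapped and replicate 3 stood far above the rest. Its adjusted p in limma was 0.0378, and leaving out 1 library at a time gave 0.0206 to 0.189. The highest was without replicate 3, and the call was also lost without replicate 2 of the 6 h controls or without untreated replicate 1, 2 or 3.

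**Figure D2:**
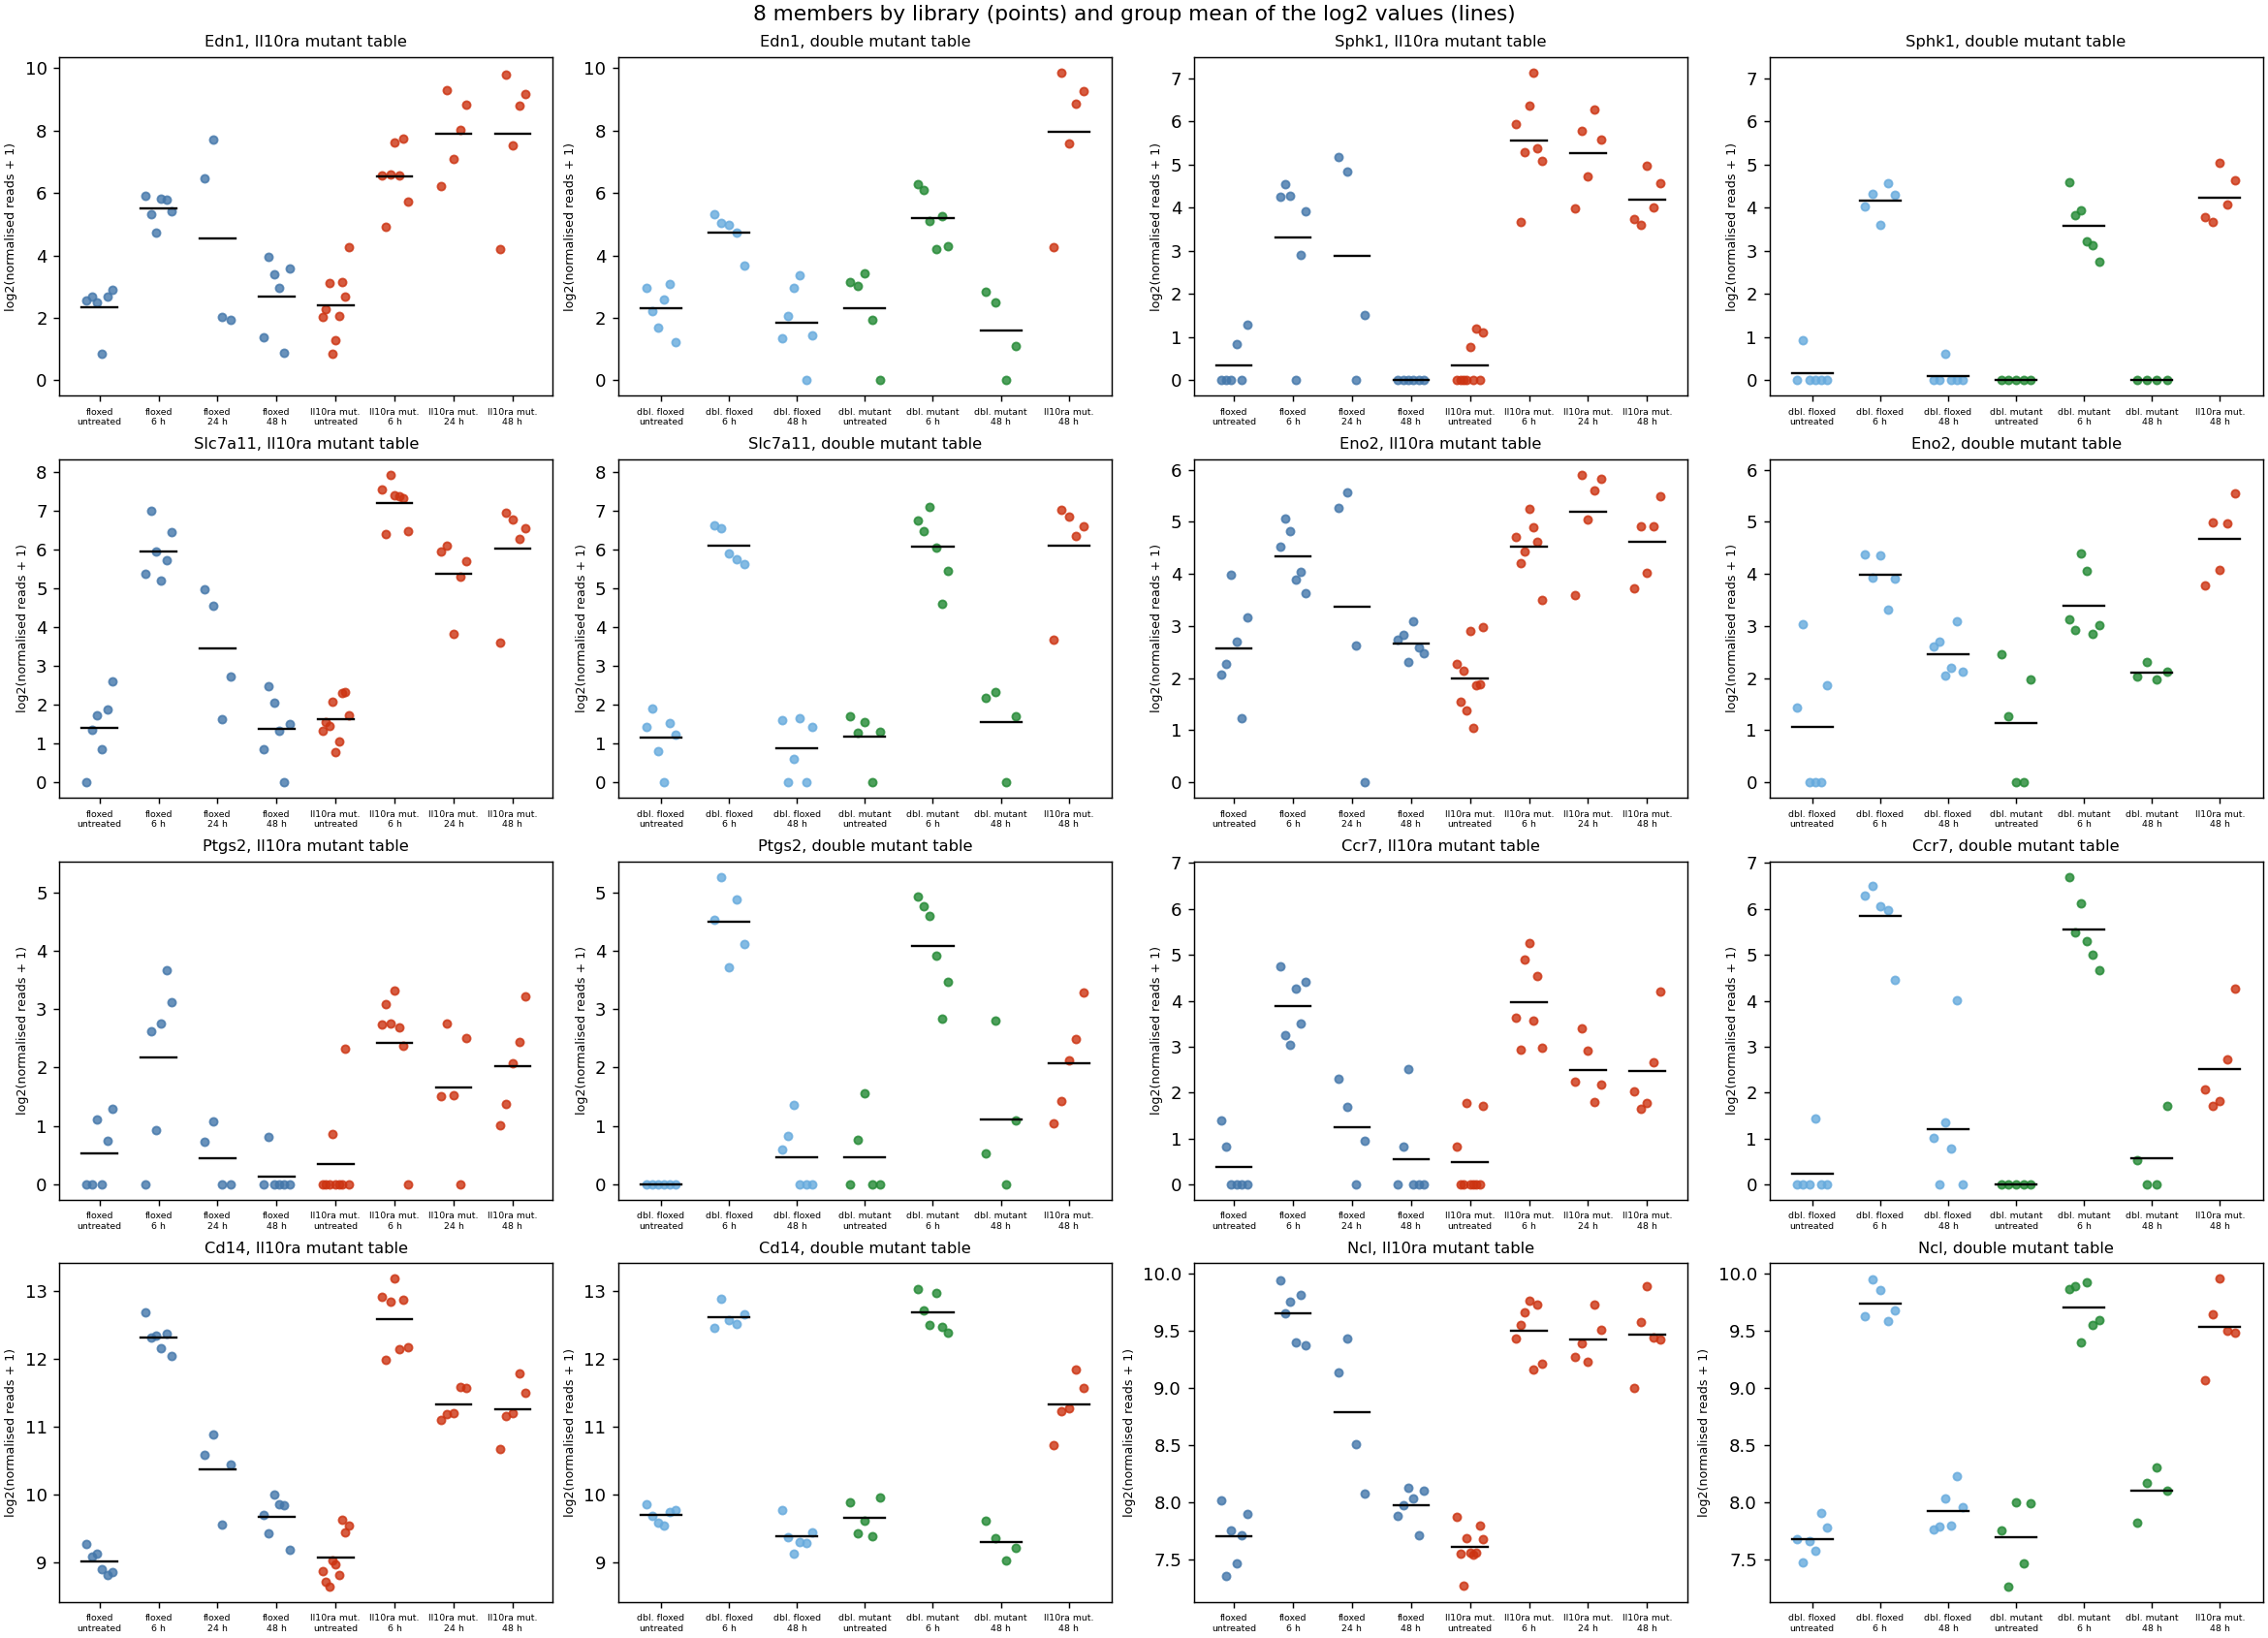
Each point is log2(normalised reads + 1) of 1 member in 1 library, by genotype and time, for 8 members in both tables, with lines at group means. At 48 h the double mutant libraries (green) of Cd14, Ncl, Edn1 and Slc7a11 lie with the doubly floxed controls (light blue), and Sphk1 is 0 in all 4.

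By 48 h the members were near their untreated levels in both genotypes. In doubly floxed controls 21 members were higher and 1 was lower, beside 13.8% of all genes higher and 9.83% lower, and the median log2 difference was 0.36. In double mutants 18 were higher and none lower, beside 11.2% and 6.86% of all genes, with a median of 0.40. The median over all genes was 0 in the controls and 0.03 in the double mutants. Within the experiment DKO_post_LPS alone 9 members were called in the controls and 7 in the double mutants. The share of all genes called in that experiment is not given, so these 2 counts are not read as a trait of the members. The calls shared by both genotypes numbered 11. The overlap of calls over all genes was not computed, so this count is not read as a trait of the members. The 2 comparisons share no library, but both came from 1 fit with a common experiment term and estimate of the spread.

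The 11 shared genes were Birc3, Ccrl2, Cdkn1a, Chil1, Clic4, Glipr2, Mapkapk2, Mvp, Pdlim7, Sdc4 and Treml2, several of them named after their values were seen. Chil1, which encodes a chitinase-like secreted protein, had the largest difference from untreated, 4.29 ± 0.57 in the controls (adjusted p = 2.39e-07, limma) and 3.97 ± 0.66 in the double mutants (adjusted p = 2.25e-05, limma). Its 48 h values were 17.7, 9.93, 38 and 46.3 in double mutants and ran from 24.3 to 147.7 in doubly floxed controls, whereas in the Il10ra mutants they were 2.13, 1.12, 4.20, 26.8 and 6.34. Chil1 thus ran opposite to most members. In the floxed controls of the other table it was 0 to 4.99 at 48 h, where the rule allowed at most 0.75 above untreated. Summed neutrophil markers, a list of 10 genes of which 8 were measured, ran from 19.0 to 932.6 in the double mutants, 50.8 to 1398.1 in the doubly floxed controls and 28.6 to 1366.6 in the Il10ra mutants of 48 h, and their part in its level was not tested. Birc3, an inhibitor of apoptosis and NF-kB target, was 0.79 ± 0.20 higher in controls and 0.67 ± 0.23 in double mutants. Cdkn1a, the cell cycle inhibitor p21, was 1.07 ± 0.25 and 1.10 ± 0.29 higher.

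By role, the 48 h calls fell as follows. Of 8 surface members, 3 were higher in each genotype at 48 h (Ccrl2, Sdc4 and Treml2), with group medians of 1.01 in controls and 0.75 in double mutants. Of 4 survival and cell cycle members, Birc3 and Cdkn1a were higher in each. In contrast, of 17 ribosome biogenesis members, Nhp2 and Pus7l were higher and Zfp593 lower in controls, and none was called in double mutants, with medians of 0.26 and 0.23. Among the 55 other ribosome biogenesis genes 2 were higher and 2 lower in each genotype. Differences between role groups were not tested.

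Wider pathway lists, which include some members, gave the surrounding response. At 6 h 21.6% of all genes were higher in the controls and 22.8% in the double mutants, and at 48 h 13.8% and 11.2%. Of 24 surface receptor and costimulation genes tested, 20 were higher and 0 lower in doubly floxed controls at 6 h and 13 and 1 at 48 h, and in double mutants 21 and 1, then 12 and 1. Of 16 genes of inflammatory enzymes and metabolism, 14 were higher at 6 h and 5 at 48 h in the controls, and 13 and 3 in the double mutants, with none lower. Of 17 feedback regulators and RNA decay factors, 11 were higher and 1 lower at 6 h in each genotype, and 3 and 4 were higher and 1 lower in each at 48 h. Early transcription factors numbered 33. In the controls 20 were higher and 2 lower at 6 h, and 7 and 3 at 48 h, and in the double mutants 17 and 2, then 3 and 2 with a median of -0.10. Of 24 innate sensing genes and signal adaptors, 10 were higher and 1 lower at 6 h and 7 and 2 at 48 h in the controls, and 13 and 1, then 7 and 2, in the double mutants. Of 16 survival and death genes, 9 were higher and 2 lower, then 6 and 4, in the controls, and 10 and 2, then 7 and 3, in the double mutants. The 16 homeostatic microglial genes moved the other way, with 15 and 14 lower at 6 h and 12 lower at 48 h in each genotype. These lists were drawn up with earlier results of the data known.

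Deletion of both Il10ra and Tnf was compared with doubly floxed controls at each time. No member differed at 48 h in limma, and edgeR and DESeq2 on the recovered reads called none either. Over all genes 0% were higher and 0.0169% lower in double mutants. The median member difference was 0.07, beside -0.01 for all genes, with a range from -1.41 (Chil1) to 0.90 (Arg1), and 61 members were above 0. At an unadjusted p under 0.05 there were 4 members, among them Cdkn1a (0.81, 95% interval 0.24 to 1.39) and Chil1 (-1.41, interval -2.71 to -0.11). Within the experiment DKO_post_LPS alone, 1 member was called, for which the share over all genes is not given.

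A missed threshold does not show that the genotypes were alike, so the intervals are given. The 95% interval at 48 h lay within -1 to 1 for 48 members and within -1.5 to 1.5 for 85, and for 96 it did not reach 1.5 upward. It reached a median of 0.78 to either side of the estimate. Cd14 had an interval of -0.36 to 0.24, Ncl of -0.15 to 0.46 and Pfkfb3 of -0.50 to 0.26. Some low genes were less well bounded, as for Edn1 (-1.40 to 1.26) and Slc7a11 (-0.18 to 1.79). The filter counted libraries of every group, so a member could pass it through its 6 h or Il10ra mutant values alone. Sphk1 reached at most 0.522 normalised reads in these genotypes at 48 h. For a member so near 0 in both, the missed call and the interval reflect the floor and do not bound a difference.

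**Figure D3:**
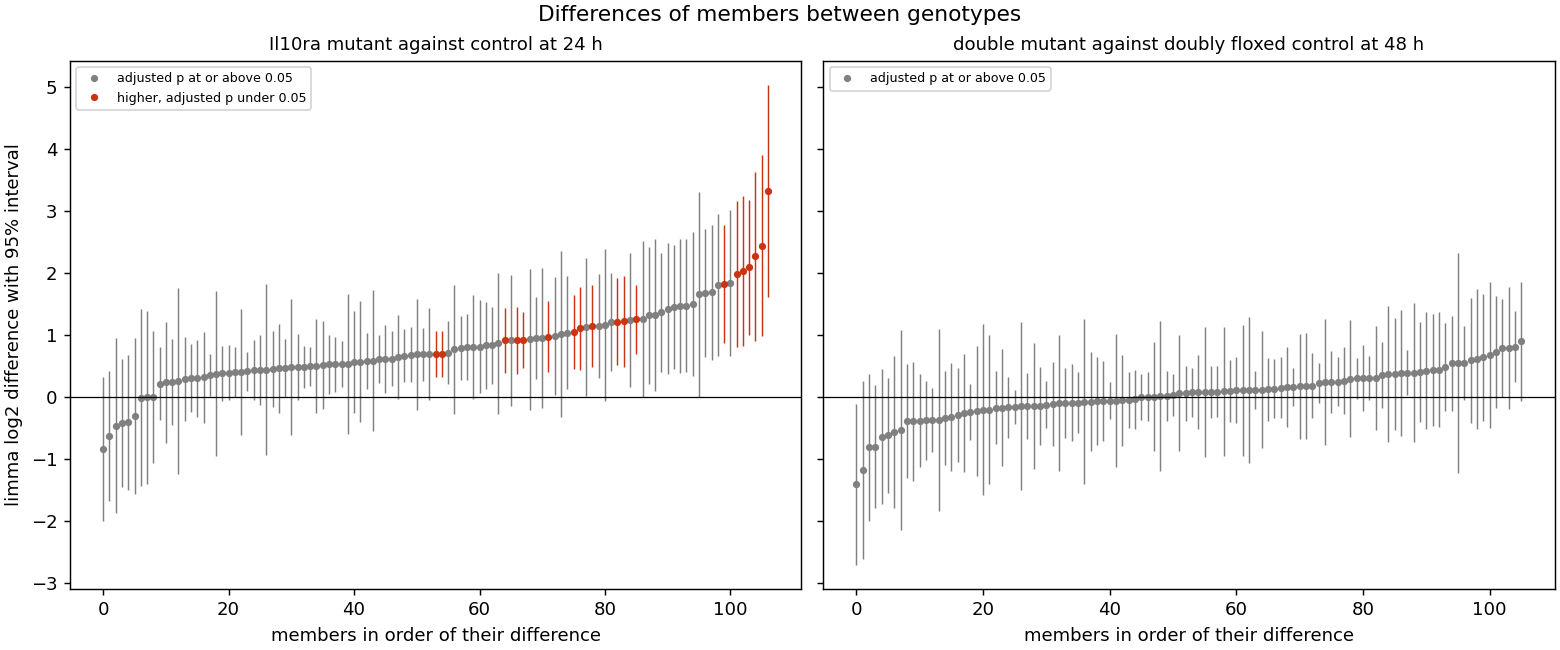
Points are limma log2 differences of single members with 95% intervals, ordered by size; the left panel is Il10ra mutant against floxed control at 24 h (19 members called, red) and the right panel double mutant against doubly floxed control at 48 h (none called). The left panel has 99 members above 0 and the right panel 61.

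No member was called between these genotypes without LPS or at 6 h either, in limma, edgeR or DESeq2. Some members, Ccr7, Ptgs2 and Sphk1 among them, were at or near 0 in both genotypes without LPS. For these the missed call without LPS reflects the floor and does not bound a difference. Untreated, 8 members had an unadjusted p under 0.05 and the median was 0.02, beside 0% of all genes higher and 0.0254% lower. At 6 h, 5 members and 1374 of all genes tested had an unadjusted p under 0.05. The member median was 0.03, and 0.0254% of all genes were called higher and 0.0424% lower. The 48 h response itself, tested as an interaction, differed for none (6 at an unadjusted p under 0.05, and 0% of all genes called in either direction). Its intervals were wider, with a median reach of 1.06 to either side, and 76 did not reach 1.5 upward. Sphk1 was near 0 both untreated and at 48 h in these genotypes, so its interval there reflects the floor too.

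Beside the double mutants, the Il10ra mutants at 48 h are given as values only, since they chose the members. The mean over members was 3.50 in double mutants (libraries at 3.77, 3.49, 3.25 and 3.50) and 5.37 in Il10ra mutants (4.72, 5.31, 5.38, 5.57 and 5.88), with no overlap. The median member was 1.67 lower in double mutants on the log2 scale, and 105 members were lower, the exceptions being Chil1 (2.07 higher) and Pdlim7 (0.11 higher). All 4 double mutant libraries lay below all 5 Il10ra mutant libraries for 75 members, beside 11.6% of all genes. Within AS_DKO_LPS_2ndexp, the experiment that holds 2 libraries of each, the median was 1.86 lower (-1.86) and again 105 members were lower. The 2 genotypes otherwise came from different experiments.

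Single genes show how far apart these libraries lay. Edn1 was 6.18, 4.64, 0 and 1.13 normalised reads in double mutants at 48 h, 0 to 9.28 in doubly floxed controls with a median of 2.41, and 18.1, 928, 192, 469 and 609 in Il10ra mutants. Sphk1 was listed at 0 in all 4 double mutants and reached 0.522 in 1 doubly floxed control, against 12.8, 11.8, 31.9, 15.7 and 23.8 in Il10ra mutants. For both genes every Il10ra mutant library was above every other 48 h library. Slc7a11 was 3.53, 3.97, 0 and 2.26 in double mutants and 11.7, 129, 113.4, 79.6 and 95.9 in Il10ra mutants. Eno2, a neuron-enriched isoform of the glycolytic enzyme enolase, was 3.09, 3.97, 2.93 and 3.39 against 12.8, 30.9, 16, 30.5 and 46. The first Il10ra mutant library was the lowest for Slc7a11 and Edn1, and it remained above the double mutants.

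Abundant members separated as well. Cd14 was 785, 654, 519 and 595 in double mutants, 559 to 872 in doubly floxed controls with a median of 646, and 1700.0, 2397, 2461, 3670.1 and 3034 in Il10ra mutants. Ncl was 225, 286, 316 and 274 in double mutants, 216 to 299 in doubly floxed controls, and 534, 801, 991, 723 and 716 in Il10ra mutants. Pfkfb3 was 123, 157.6, 127 and 121 in double mutants, 108.1 to 216 in doubly floxed controls, and 596, 1202, 989, 848 and 1189.5 in Il10ra mutants. In each gene the double mutants overlapped the doubly floxed controls and no Il10ra mutant library did. Slc15a3 was 364, 234, 205 and 181 in double mutants and 775, 1391, 1175, 1400.1 and 1389 in Il10ra mutants, and Klf13 was 233, 219.9, 265 and 261 against 778, 596, 602, 643 and 624. Pde4b overlapped in 1 library, at 111.8, 57.6, 39.5 and 37.2 in double mutants and 109.6, 563, 386, 451 and 564 in Il10ra mutants. Crispld2 and Ly6c2 were uneven among the Il10ra mutants, Crispld2 at 21.3, 3.93, 30.2, 5.55 and 3.17 and Ly6c2 at 14.9, 0.561, 18.5, 8.33 and 19.8, against 0 to 2.65 and 0 to 8.39 in double mutants. Relb, a subunit of NF-kB, overlapped between mutants at 77.3, 55.6, 58.5 and 48.5 in double mutants and 55.4, 167, 114.2, 242 and 315 in Il10ra mutants.

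Ccr7 and Ptgs2 were exceptions in size. Ccr7 was 3.19, 2.24, 2.52, 5.55 and 18.2 in Il10ra mutants at 48 h, below every 6 h value of the same table, and 0.442, 0, 0 and 2.26 in double mutants, so that the lowest Il10ra mutant library met the highest double mutant. Ptgs2 was 1.06, 1.68, 3.36, 4.63 and 8.72 in Il10ra mutants and 0.442, 5.96, 0 and 1.13 in double mutants, and the groups overlapped. Most of these libraries held only a few normalised reads of either gene.

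Markers of other cells differed between these 48 h groups. Summed monocyte markers (8 genes) ran from 26.9 to 176.7 in Il10ra mutants, 202.0 to 425.4 in double mutants and 114.2 to 414.6 in doubly floxed controls. Border macrophage markers ran from 11.1 to 29.8, 36.4 to 136.5 and 35.0 to 246.1 in the same order. The Il10ra mutants, where members were high, had the lower levels of both lists. The neuron and oligodendrocyte lists ran the opposite way. Neuron markers (3 of 5 genes measured) ran from 9.2 to 21.3 in Il10ra mutants, 3.1 to 9.0 in double mutants and 2.0 to 11.8 in doubly floxed controls. Oligodendrocyte markers (4 of 5 genes measured) ran from 91.5 to 129.6, 71.7 to 91.4 and 75.3 to 86.0. The part of other cells in the member differences, that of the neuron-enriched Eno2 included, was not tested.

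**Figure D4:**
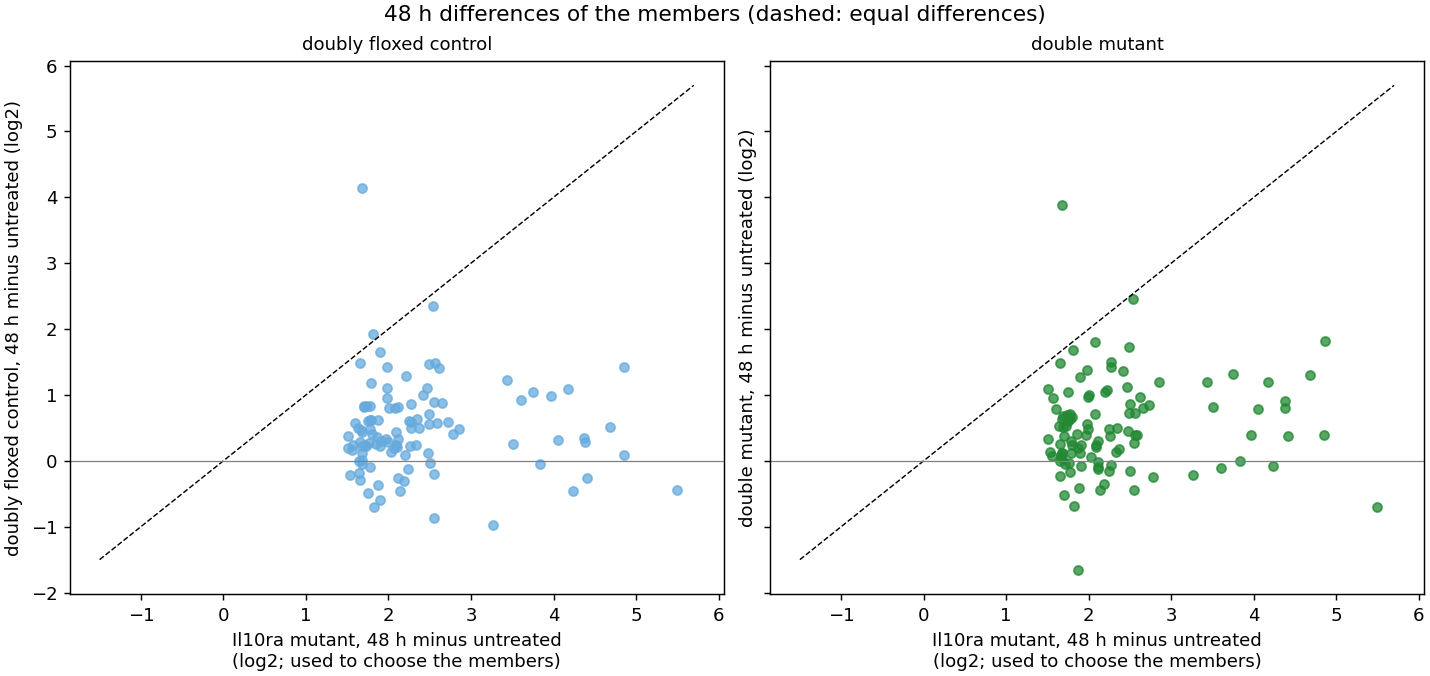
Each point is 1 member; the x axis is the log2 difference between 48 h and untreated in Il10ra mutants, which helped to choose the members, and the y axis the same difference in doubly floxed controls (left) or double mutants (right), with a dashed line at equality. Nearly all points lie below the line, and the highest point in both panels is Chil1.

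By role, the median difference between double and Il10ra mutants at 48 h was -2.32 for coagulation and secreted factors, -2.22 for lipid mediator and cyclic AMP genes, -1.99 for surface receptors and -1.57 for ribosome biogenesis. The ribosome group was the tightest of the larger ones, with a range of -2.01 to -0.80, whereas secreted factors ran from -6.36 (Edn1) to 2.07 (Chil1). The Il10ra mutant libraries chose the members, so these medians and ranges partly restate the rule. Role groups were not tested against each other here either.

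**Figure D5:**
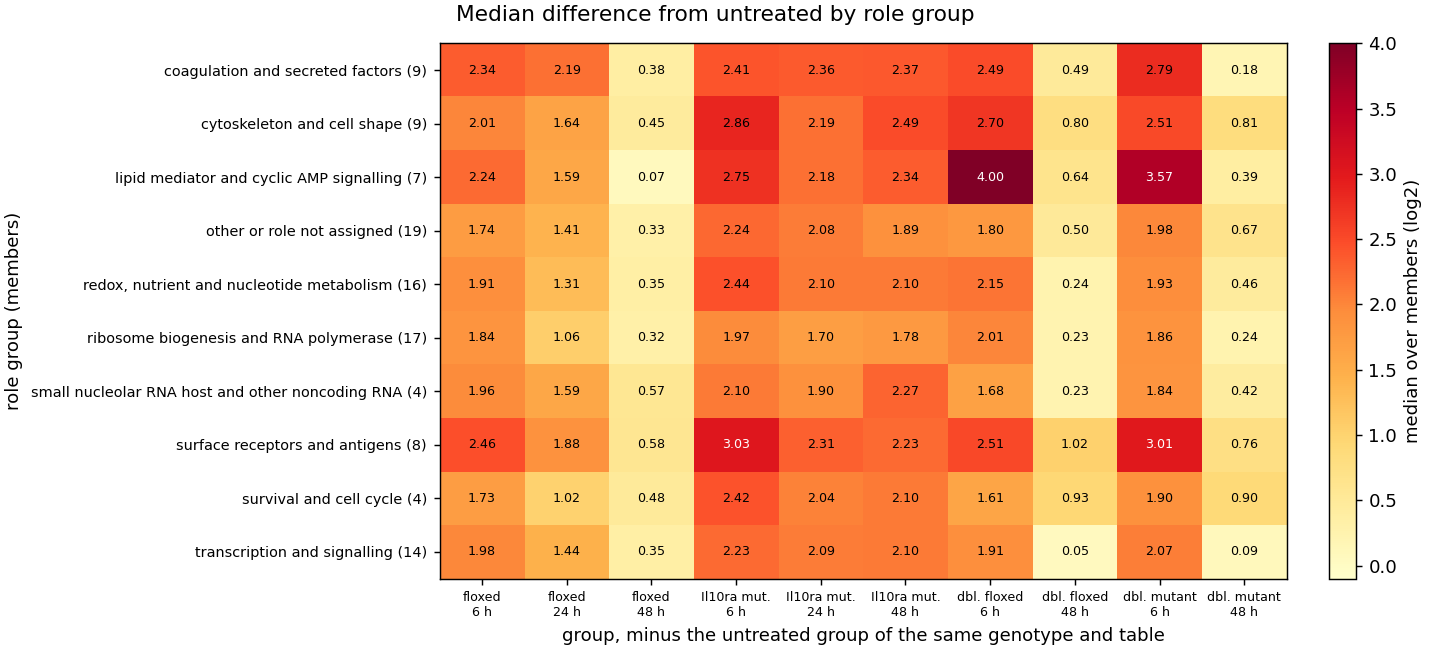
Colours and printed values are medians over the members of a role group of the log2 difference from the untreated group of the same genotype and table. All role medians of double mutants at 48 h are under 1, as in doubly floxed controls except surface receptors (1.02). Medians of at most 0.75 in floxed controls at 48 h were fixed by the rule. Those of at least 1.5 in floxed controls at 6 h and in Il10ra mutants at 48 h were fixed likewise.

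The 24 h libraries of the Il10ra mutant table also stood outside the rule, and they show the members between the early and late times. At 24 h 19 members were higher in Il10ra mutants than in floxed controls and none was lower, beside 1.11% of all genes higher and 2.4% lower. The median difference was 0.69, beside -0.01 for all genes, and 99 members were above 0. The count rested on single libraries: it was 0 without control replicate 3 or 4, 38 or 49 without control replicate 1 or 2, and 42, 4, 5, 3 and 1 without mutant replicates 1 to 5. It was 8 without the experiment term and 0 within AS_2nd_exp alone, which holds 3 control and 2 mutant libraries.

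The 4 control libraries of 24 h fell into a high and a low pair, with member means of 5.03, 5.22, 3.73 and 3.88. The mutants were at 4.92, 5.58, 4.88, 5.23 and 5.41, so the high pair of controls lay among them. Summed monocyte markers in those controls were 49.9, 75.3, 176.2 and 157.9, and summed neutrophil markers 23.0, 116.3, 130.8 and 251.3, in the same order of replicates. Both libraries with low member means had the higher marker sums, and the part of other cells was not tested. Replicates 1 to 3 came from 1 experiment and replicate 4 from another.

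Edn1 had the largest called difference at 24 h, 3.33 ± 0.85 (adjusted p = 0.0222, limma). With 1 library left out at a time its adjusted p in limma ran from 0.000821 to 0.338, and 5 of 9 fits lost the call. Edn1 was 74.5, 627, 135, 258 and 452 in mutants and 88.7, 209, 3.09 and 2.8 in controls, so that the high pair of controls overlapped the mutants. Sphk1 differed by 2.45 ± 0.73, at 14.7, 54.2, 25.3, 76.0 and 46.5 in mutants and 34.8, 27.7, 0 and 1.87 in controls. Eno2 was 2.04 ± 0.60 higher and Slc7a11 1.99 ± 0.58 higher, and both again overlapped only with control replicates 1 and 2. Cystm1 (2.09 ± 0.54) and AA467197 (2.28 ± 0.68), whose roles are not assigned here, completed the 6 largest. Cd14 overlapped no control library, at 2188, 2315, 2352, 3057 and 3044 in mutants against 1537, 1892, 752 and 1391, a difference of 0.92 ± 0.23 (adjusted p = 0.0190, limma). Its adjusted p in limma ran from 0.00238 to 0.201 with 1 library left out at a time, and 4 of 9 fits lost the call.

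The called members were spread over roles. There were 4 of 17 ribosome biogenesis genes (Ncl, Snu13, Tsr1 and Zfp593), 4 of 16 metabolic genes (Eno2, Pfkfb3, Slc7a11 and Uck2), 3 of 14 transcription and signalling genes (Epop, Kdm6b and Relb) and 2 of 4 survival genes (Cdkn1a and Ripk3). Of the 55 other ribosome biogenesis genes, 3 were higher and none lower, with a median of 0.38.

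Within Il10ra mutants 18 members fell and 6 rose between 6 h and 24 h, beside 12.5% and 10.5% of all genes. The members called in both directions together were near that share of all genes. Their median change was -0.17, against 0.00 over all genes. In the same comparison 1 of 7 neutrophil markers fell (median -2.18) and 2 of 6 monocyte markers fell, and none of either list rose. Summed neutrophil markers had a median of 432.7 at 6 h and 122.3 at 24 h, and monocyte markers of 89.9 and 49.1, and their part was not tested. Cd14 fell by 1.28 ± 0.20 (adjusted p = 2.53e-06, limma), Kdm6b, a histone H3K27 demethylase gene, fell by 1.31 ± 0.28, Slc7a11 fell by 1.79 ± 0.50, and Ccr7 fell by 1.44 ± 0.47. Gas7 rose by 2.05, Ms4a8a by 1.65, Lama5, a laminin chain, by 1.62, Vgf, a neuropeptide precursor, by 1.56 and Timp1, an inhibitor of matrix metalloproteinases, by 1.09, all named after their values were seen. Ncl (-0.05, interval -0.37 to 0.27) and Pfkfb3 (0.08, interval -0.50 to 0.66) did not pass the test. Within AS_2nd_exp alone 6 members were called, and 13 within Anat_LPSchallenged. Shares of all genes in these single experiments are not given, so the 2 counts are not read as a trait of the members.

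At 6 h the Il10ra mutants and their floxed controls, part of whose libraries chose the members, differed by a median of 0.24, with 74 members higher in mutants. Untreated, the median difference was 0.01. Floxed controls 7 days after LPS, an experiment of their own that cannot be told apart from the time, had a mean over members of 3.47 ± 0.24 (SD, n = 4), beside 3.04 ± 0.06 (SD, n = 6) in untreated controls of the same table. Markers of other cells were also higher there: summed neutrophil markers ran from 2612.2 to 19337.3 against 6.0 to 814.3 untreated, monocyte markers from 246.7 to 741.2 against 21.5 to 43.7, and border macrophage markers from 237.5 to 523.8 against 13.7 to 67.8. Among members the differences from untreated were highest for Ly6c2 (4.86), Slpi (3.20), Chil1 (3.16) and Slfn4 (3.08), named after their values were seen, and the part of other cells was not tested. Untreated C57BL/6 microglia, likewise from a separate experiment, had 4.04 ± 0.06 (SD, n = 4) over the 76 members in that table, against 3.80 ± 0.06 (SD, n = 6) in untreated floxed controls.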

How the data were processed

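The deposited values were reads per gene and library divided by a size factor by the authors, per the file headers, a signal in normalised reads. Per the labels' protocols libraries were made by MARS-seq, and mm10 is the genome build named per the submitters' processing notes. Neither the aligner, the counting program nor the size factor method is named in those sources. Columns divided by their smallest non-zero value held whole reads for 100.0% of values within a tolerance of 0.01, and these were used only for edgeR 4.0.16 and DESeq2 1.42.0. Rows whose names had become dates (18 in each mutant table) were left out, leaving 12798 and 13390 genes. The mutant tables share 5 libraries, and each table was fitted by itself.

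Values were taken as log2(value + 1), which understates changes of low genes. A gene was tested when it reached 5 in a number of libraries, of any groups of the table, no smaller than the smallest group. limma 3.58.1 (R 4.3.3) fitted group means plus 1 term per experiment, as read from the labels, and p-values were adjusted by Benjamini-Hochberg over all genes tested. A call is an adjusted p under 0.05. The experiment term drew partly on libraries that the rule used. Scripts were tested on simulated data. Il10ra mutants against controls untreated, at 6 h and at 48 h, and double against Il10ra mutants, share libraries with the rule and were not tested.

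The members, lists and tests were chosen with earlier results of these data known. Role groups, the 55 ribosome biogenesis genes and the promoters shown were chosen after the members were known. Members named by rule were the 6 largest called changes at 24 h and at 6 h in doubly floxed controls, the 6 most abundant members, genes at the rule's edges, members of the fixed lists and the targeted genes. Of these, 1 is not reported here, not all are given library by library, and others were named after their values were seen. The library with conflicting labels was left out, and 1 untreated double mutant marked as a mistake in its column name was kept. Alternatives were another pseudocount, no filter, quantile scaling, edgeR, DESeq2, no experiment term, single experiments, a replicate block and leaving out each library. Chromatin accessibility peak lists were not used here, because no annotation of their build was at hand.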

Additional observations from a re-analysis of the deposited data

Results flagged for a closer look

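Among 11 members examined sample by sample, 163 groups of 4 to 9 libraries were tested for a library far from the others, and 16 were flagged. The cut-off flags about 1 in 20 groups by chance only where values are normally spread. In a group otherwise at 0 it flags any library with a read, so the count of flags has no known chance rate. In floxed controls the flagged values were Edn1 in untreated replicate 4 (0.79 normalised reads), Sphk1 at 6 h in replicate 4 (0), Ccr7 at 48 h in replicate 3 (4.73) and Ptgs2 at 48 h in replicate 2 (0.763). In Il10ra mutants Ptgs2 stood apart in untreated replicate 8 (4.01) and in replicate 7 at 6 h (0), and Slc7a11 in replicate 1 at 48 h (11.2). In doubly floxed controls Sphk1 stood apart in untreated replicate 2 (0.904) and in replicate 4 at 48 h (0.522), and Ccr7 in untreated replicate 4 (1.69), in replicate 5 at 6 h (20.9) and in replicate 6 at 48 h (15.1). Birc3 was low in replicate 5 of these controls at 6 h (57). In double mutants Slc7a11 was 0 in untreated replicate 4, Pfkfb3 was low in replicate 5 at 6 h (486) and Birc3 was high in replicate 1 at 48 h (76.0). The flagged values of Ptgs2 in floxed controls, of Sphk1 in doubly floxed controls and of Ccr7 in their untreated replicate 4 each equal 1 read. Edn1 in untreated floxed control replicate 4 also equals 1 read, there below the other libraries.

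The 48 h library with conflicting genotype labels entered no comparison. Its mean over members was 3.64, above the highest untreated doubly floxed control (3.14) and within the 48 h ranges of doubly floxed controls (3.25 to 3.77) and double mutants (3.25 to 3.77). Its Il10ra was 467 normalised reads, beside 315 to 470 in doubly floxed controls of 48 h and 13.2 to 76.4 in double mutants. Its Tnf was 266, beside 71.5 to 246 and 4.39 to 9.27. Both transcripts thus lay above every 48 h double mutant library.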

How the results depend on the processing

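The count of members called at 24 h was the least stable. It was 19 in the reported test, 8 with no experiment term, 6 with the replicate number as a block and 0 within AS_2nd_exp, and it ran from 0 to 49 when 1 library was left out, while edgeR gave 13 and DESeq2 19. Within single experiments the counts fell to 6 (AS_2nd_exp) and 13 (Anat_LPSchallenged) for 24 h against 6 h in mutants, 9 for doubly floxed controls at 48 h, 7 for double mutants at 48 h, and rose to 1 for double mutants against doubly floxed controls at 48 h (all DKO_post_LPS), with fewer libraries in each. Leaving out 1 library at a time gave 20 to 27 for 24 h against 6 h, 97 to 101 and 16 to 22 for doubly floxed controls at 6 h and 48 h, 103 to 105 and 13 to 19 for double mutants, 0 to 1 between these genotypes at 48 h, the 1 being without double mutant replicate 1, and 0 untreated, at 6 h and for the interaction. The number of members was 55 with a pseudocount of 5 (41 shared), 36 with each threshold 0.25 stricter, and 245 with each 0.25 looser. Medians in place of means kept 79 and added 33 others. The labels do not say that equal replicate numbers mark a pair, and over 45 same-numbered pairs the correlations of deviations ran from -0.266 to 0.192. With the replicate block the other counts were 20 for 24 h against 6 h, 98 and 18 for doubly floxed controls, 104 and 15 for double mutants, and 0 between the genotypes. Of 1697 alternatives for single named genes, 1535 kept their direction and side of the threshold, 162 lost the call and 0 reversed. The losses were uneven among comparisons. Between Il10ra mutants and controls at 24 h each gene named by rule lost its call in 4 to 6 of 9 fits that left out 1 library. Birc3 in double mutants at 48 h lost it in 6 of 9. Intervals of low genes such as Edn1 were wide, and whether depth or the spread between libraries set their width was not tested. Except where stated, the cause of a change was not tested.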
